A study of Mus musculus with 6 samples.

Results

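The genes described here are 10 transcripts of T lymphocytes of the epidermis, chosen by name: the CD3 chains Cd3d, Cd3e, Cd3g and Cd247, the surface proteins Thy1, Klrk1 and Il2rb, and the effector genes Nkg7, Gzmb and Xcl1. All 10 were found on the array through the RefSeq accession of their probes, among 18217 genes named in the same way, and 14 probes read them. They were measured in whole epidermis of mice at postnatal day 0, with the strain given only as mixed, on 6 Agilent arrays of 1 colour. In the 3 AhRCA mice the keratin 14 promoter, which is active in basal keratinocytes, drove a constitutively active AhR, the aryl hydrocarbon receptor, a transcription factor that normally waits for a ligand. The 3 wild-type (WT) mice were their littermates, so that replicate numbers 1 to 3 each stand for 1 littermate pair, and the comparison addresses gene expression in skin whose keratinocytes have AhR switched on.

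Newborn mouse epidermis is seeded before birth by T cells with a gamma-delta receptor, which settle between the keratinocytes as dendritic epidermal T cells. Their antigen receptor signals through the CD3 chains, whose cytoplasmic tails are phosphorylated when the receptor is engaged. They are known to carry Thy-1 on their surface, to depend on interleukin 15 and to use the NKG2D receptor to sense stressed keratinocytes. In whole tissue a lower signal of their transcripts can come from fewer such cells or from less RNA per cell, and these cannot be told apart here.

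Promoter sequences were available from RefSeq (build GRCm38.p6) for 8 of the 10 genes; Thy1 and Il2rb had none. Those of Cd3d, Cd3g, Cd3e and Nkg7 are shown because the first, second and last of these had larger differences between the genotypes than Cd3e, although Cd3d, Cd3e and Cd3g are neighbours on chromosome 9 and the promoters of Cd3g and Cd3d face away from each other. Each run gives the 250 bases before the annotated transcription start, 5′ to 3′ on the gene's own strand. Capitals mark the E-box CAGGTG or its reverse complement CACCTG, a motif bound by E proteins, and the same capitals would mark the AhR core GCGTG or its reverse complement CACGC.
Cd3d, chr9:44981536-44981785, plus strand: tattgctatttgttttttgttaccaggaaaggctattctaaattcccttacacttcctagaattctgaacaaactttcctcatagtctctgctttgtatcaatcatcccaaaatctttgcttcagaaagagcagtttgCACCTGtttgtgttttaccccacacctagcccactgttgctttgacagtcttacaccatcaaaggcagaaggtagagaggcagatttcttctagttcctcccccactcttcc
Cd3g, chr9:44980432-44980681, minus strand: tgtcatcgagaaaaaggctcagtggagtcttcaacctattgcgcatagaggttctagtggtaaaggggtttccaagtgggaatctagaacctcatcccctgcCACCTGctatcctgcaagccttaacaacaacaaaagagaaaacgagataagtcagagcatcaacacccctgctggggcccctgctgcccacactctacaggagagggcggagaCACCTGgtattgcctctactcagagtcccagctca
Cd3e, chr9:45009612-45009861, minus strand: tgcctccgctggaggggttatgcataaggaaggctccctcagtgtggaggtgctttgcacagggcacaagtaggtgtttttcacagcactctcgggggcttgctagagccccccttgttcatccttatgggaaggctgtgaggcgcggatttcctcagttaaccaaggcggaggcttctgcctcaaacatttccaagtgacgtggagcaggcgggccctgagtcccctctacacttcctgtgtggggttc
Nkg7, chr7:43436888-43437137, plus strand: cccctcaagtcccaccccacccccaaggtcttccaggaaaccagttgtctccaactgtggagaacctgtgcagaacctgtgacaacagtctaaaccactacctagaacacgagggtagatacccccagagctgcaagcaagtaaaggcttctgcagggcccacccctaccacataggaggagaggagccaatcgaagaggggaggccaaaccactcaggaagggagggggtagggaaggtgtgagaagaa
The E-box CAGGTG lay once in the Cd3d window and in 2 places in the Cd3g window, and 3 of the 8 members with a promoter, Cd3d, Cd3g and Cd247, held it, against 17.2% of all 32851 promoters of the same length. The AhR core GCGTG was in 0 of the 8 windows and in 28.2% of all promoters. The Runx core TGTGGT was in 4 of 8 (Nkg7, Gzmb, Xcl1 and Klrk1) and in 14% of all, and the Ets core GGAAGT in 4 of 8 (Cd3d, Cd3e, Cd247 and Xcl1) and in 19.7%. Of 3 further motifs, CAGCTG and TATAAA were in 0 of 8 and AGATAA was in 1 of 8, the Cd3g window, against 13%, 12.4% and 9.99% of all. Motifs were searched on both strands, and in the 8 windows no match overlapped a match of another motif. A match is a string of letters and not a site of binding.

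The share of spots well above background ran from 56.2% to 61.3%, no spot was saturated, and precision is limited by there being 3 arrays per genotype. The AhR target Cyp1a1 stood between -3.96 and -2.18 in WT and between 3.32 and 5.04 in AhRCA, in log2 intensity relative to the array's 75th percentile, the scale of all levels below. Pairs 1 and 2 lay on slide 1 and pair 3 on slide 2. The transcript of the inactive X chromosome, Xist, stood between 4.43 and 4.66 on slide 1 and between -7.14 and -4.20 on slide 2, and the Y-linked Ddx3y between -7.29 and -6.84 on slide 1 and between 1.43 and 1.65 on slide 2. Slide, sex and litter therefore changed together between pair 3 and the other pairs and cannot be told apart. Each pair held both genotypes. Krt15, a basal keratin, had a log2 difference of -0.72 ± 0.13 that was called lower (adjusted p = 0.0460, limma), but not with the littermate pair as a block (0.0534), with quantile normalization (0.0653) or median scaling (0.0940), with no filter on dim probes (0.103) or on slide 1 alone (0.123). Its call was also lost without any 1 array other than WT replicate 1 (0.0984 to 0.194). The keratinocyte markers Krt5, Krt14, Krt1, Krt10, Krt15, Trp63 and Lor were well above background in the samples, with a summed level relative to the 75th percentile of 1705 to 1856 in WT and 1546 to 1839 in AhRCA, and markers of endothelium were not well above background on any array.

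In AhRCA epidermis Thy1, Nkg7, Cd3d, Il2rb and Cd3g had mean levels between 2.04-fold and 2.56-fold below WT, Gzmb 1.82-fold and Xcl1 1.42-fold, whereas Cd3e differed by 1.12-fold. None of these differences passed the threshold (adjusted p under 0.05; limma, Benjamini-Hochberg over 12824 genes), and Thy1 came nearest (adjusted p = 0.0653). Only probes detected well above background on 3 or more arrays were tested, a filter that 8 of the 10 genes met, and 3 of these, Cd3e, Cd3g and Thy1, were well above background on all 6. Of the 8 tested, 0 were called, while 2.18% of all genes tested were called, 1.65% lower and 0.53% higher in AhRCA. At an unadjusted p under 0.05, 4 of the 8 were lower (Thy1, Nkg7, Gzmb and Cd3d), against 7.57% of all genes lower at that level. The median log2 difference of the 8 was -1.09, against 0.00 over all genes tested, and the 8 differences lay between -1.36 and -0.17. A difference below -1 was found in 5 of the 8 and in 2.64% of all genes. Some of the 8 met the filter mainly through their WT arrays, so this median and these counts describe the genes and do not support a difference.

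The CD3 delta chain gene Cd3d, whose product can form a dimer with CD3 epsilon, stood at -2.16, -2.80 and -3.74 in WT 1 to 3 and at -3.34, -4.91 and -4.15 in AhRCA 1 to 3. WT 1 and WT 2 were the highest arrays, and WT 3 lay within the range of the AhRCA arrays, so the groups overlapped. The log2 difference was -1.24 ± 0.51 (SE, n = 3 per group; adjusted p = 0.403, limma). Cd3d was not well above background on AhRCA 2. The CD3 gamma chain gene Cd3g, the other partner of CD3 epsilon, stood at -1.75, -2.72 and -3.12 in WT 1 to 3 and at -3.35, -4.43 and -2.90 in AhRCA 1 to 3. AhRCA 3 was above WT 3, and AhRCA 1 and AhRCA 2 were the lowest arrays. Its difference was -1.03 ± 0.48 (adjusted p = 0.502, limma).

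The CD3 epsilon gene Cd3e, common to both dimers, varied little, at -3.71, -3.75 and -3.33 in WT 1 to 3 and -3.96, -3.90 and -3.42 in AhRCA 1 to 3. AhRCA was the lower in each pair, with differences of -0.25, -0.16 and -0.09, and both arrays of pair 3 were higher than all others. The log2 difference was -0.17 ± 0.19 (adjusted p = 0.957, limma). The SD within a genotype was 0.23 and 0.30 for Cd3e, against 0.79 in both genotypes for Cd3d and 0.71 and 0.79 for Cd3g. The zeta chain gene Cd247, whose product carries most of the signalling motifs of the receptor complex, was read by 3 probes, none of them well above background on any array, and has no measured difference here.

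**Figure D1:**
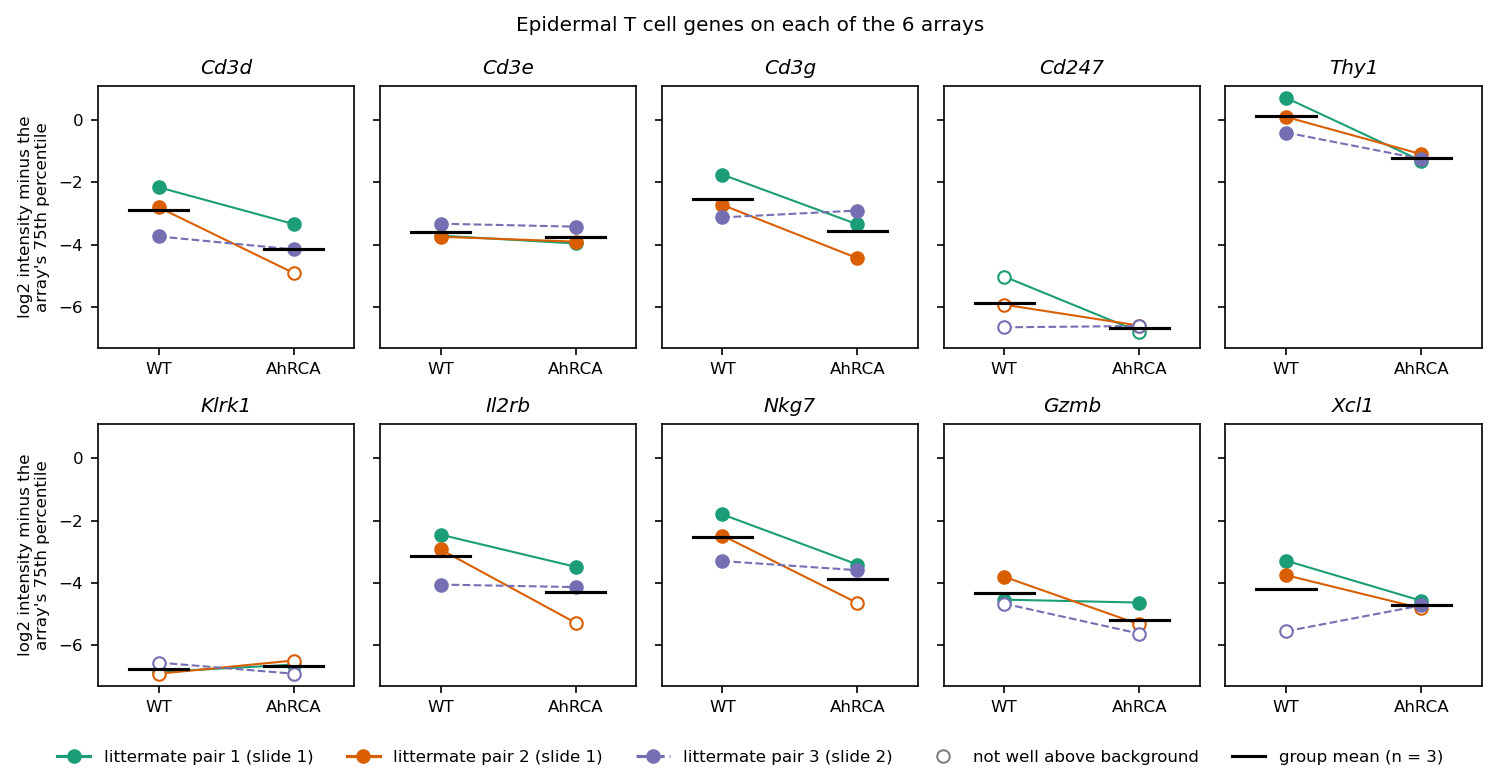
Levels of the 10 genes on the 6 arrays (vertical axis, log2 intensity minus the array's 75th percentile; horizontal axis, genotype), with lines joining the littermates of a pair, open circles for values not well above background and black bars for group means; Cd247 and Klrk1 are shown by their brightest probe. Thy1 and Nkg7 have all 3 AhRCA arrays below all 3 WT arrays, Cd3e is nearly level, and in pair 3 the lines of Cd3g and Xcl1 rise.

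Among the surface proteins, Thy1, which encodes the GPI-anchored Thy-1 (CD90) antigen of mouse T cells and is also made by fibroblasts and neurons, had the smallest spread in AhRCA. Its brighter probe stood at 0.71, 0.10 and -0.40 in WT 1 to 3 and at -1.31, -1.09 and -1.25 in AhRCA 1 to 3. All AhRCA arrays were below all WT arrays, as they were for 8.84% of all genes tested. Means were 0.14 ± 0.56 (SD, n = 3) for WT and -1.22 ± 0.11 for AhRCA, a log2 difference of -1.36 ± 0.27. With the slide as a block Thy1 passed (adjusted p = 0.0456, limma), 1 of 8 against 2.91% of all genes called lower in that fit. With the littermate pair as a block it did not (adjusted p = 0.0666), and 0 of 8 were called against 2.81%. It also passed with the mean of its probes (log2 difference -1.69, adjusted p = 0.0324; 1.71% of all genes called lower) and without WT replicate 3 (-1.62, adjusted p = 0.0344), and over all alternatives its adjusted p lay between 0.0324 and 0.204. The dimmer Thy1 probe stood at -3.01, -2.82 and -3.87 in WT 1 to 3 and at -5.51, -4.94 and -5.36 in AhRCA 1 to 3, with no AhRCA array well above background. That probe met the filter through its WT arrays alone. The call on the mean of the 2 probes includes it and therefore does not support a difference.

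Il2rb, the beta chain shared by the receptors for interleukin 2 and interleukin 15, stood at -2.45, -2.93 and -4.06 in WT 1 to 3 and at -3.49, -5.29 and -4.14 in AhRCA 1 to 3. The WT arrays of pairs 1 and 2 were high and AhRCA 2 was the lowest, while WT 3 and AhRCA 3 nearly coincided. On AhRCA 2 the signal was not well above background. Il2rb had a log2 difference of -1.16 ± 0.56 (adjusted p = 0.522, limma). Klrk1, which encodes the NKG2D receptor, was read by a single probe between -6.92 and -6.50 that was not well above background on any array, so neither genotype has a measured level.

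Among the effector genes, Nkg7, a membrane protein of cytotoxic granules, stood at -1.80, -2.48 and -3.30 in WT 1 to 3 and at -3.41, -4.65 and -3.60 in AhRCA 1 to 3. All AhRCA arrays were again below all WT arrays, as for 8.84% of all genes tested, with WT 3 close above AhRCA 1. On AhRCA 2 this probe was not well above background. The log2 difference was -1.36 ± 0.46 (adjusted p = 0.271, limma). A dimmer Nkg7 probe, not well above background on WT 3 or on any AhRCA array, stood at -3.43, -3.82 and -4.65 in WT and at -4.84, -6.29 and -5.07 in AhRCA.

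Gzmb, which encodes the serine protease granzyme B, stood at -4.54, -3.81 and -4.67 in WT 1 to 3 and at -4.64, -5.34 and -5.63 in AhRCA 1 to 3. WT 2 was the highest array, and only WT 1, WT 2 and AhRCA 1 were well above background. Gzmb had a log2 difference of -0.86 ± 0.32 (adjusted p = 0.338, limma), and with normexp background correction it was -0.24. Xcl1, the chemokine lymphotactin, which draws dendritic cells that carry its receptor, stood at -3.29, -3.76 and -5.56 in WT 1 to 3 and at -4.58, -4.82 and -4.73 in AhRCA 1 to 3. WT 3 was its lowest array, and the other WT arrays were its highest. Xcl1 was not well above background on WT 3 or on AhRCA 2. For Xcl1 the difference was -0.51 ± 0.55 (adjusted p = 0.949, limma). The value turned on single WT arrays: it was -0.05 without WT replicate 1 (adjusted p = 0.999, limma) and -0.28 without WT replicate 2. Without WT replicate 3 it was -1.18 (adjusted p = 0.0497), and in that fit Xcl1 and Thy1 were the 2 of 8 genes called, against 1.09% of all genes called lower.

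Within littermate pairs, 8 of the 8 tested genes were lower in AhRCA in pair 1, 8 in pair 2 and 6 in pair 3, with median differences of -1.23, -1.62 and -0.19. The genes lower in all 3 pairs were Cd3d, Cd3e, Thy1, Nkg7, Il2rb and Gzmb, a pattern shown by 20.1% of all genes tested. Nkg7 differed by -1.61, -2.17 and -0.29 in pairs 1 to 3 and Il2rb by -1.03, -2.36 and -0.08. Cd3d differed by -1.18, -2.11 and -0.42 and Thy1 by -2.02, -1.19 and -0.85. Gzmb had its smallest difference in pair 1, at -0.09. Cd3g was 0.22 higher in AhRCA in pair 3, after -1.60 and -1.71 in the other pairs, and Xcl1 was 0.83 higher after -1.28 and -1.06. The difference on slide 2 exceeded that on slide 1 by 1.87 ± 0.89 for Cd3g (adjusted p = 0.536, limma interaction of genotype and slide). The same test gave an adjusted p of 0.492 for Xcl1, so neither was shown to differ between slides; 0.0078% of all genes passed it. That test was chosen after the values were seen and rests on 1 pair for slide 2.

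**Figure D2:**
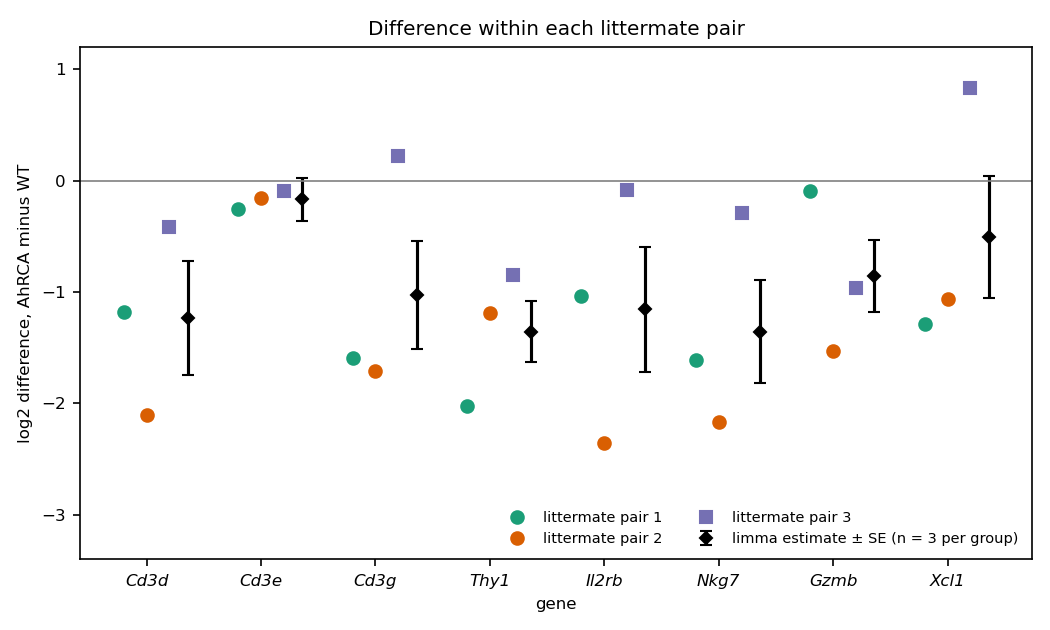
Difference between AhRCA and WT within each littermate pair (vertical axis, log2) for the 8 tested genes, with squares for pair 3 on slide 2 and black diamonds for the limma estimate with its SE. Pairs 1 and 2 lie below 0 for every gene shown, and pair 3 lies nearest to 0, or above it, for all but Gzmb.

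On slide 1 alone the log2 differences were -1.65 for Cd3d, -1.65 for Cd3g, -1.89 for Nkg7, -1.70 for Il2rb, -1.61 for Thy1 and -1.17 for Xcl1, and 0 of the 8 genes passed (0.741% of all genes were called lower there). The lowest adjusted p was 0.0844, for Thy1 (limma). Across arrays, WT 1 was the highest array for 6 of the 8 genes and AhRCA 2 the lowest for 4, namely Cd3d, Cd3g, Nkg7 and Il2rb. AhRCA 2 had the smallest share of spots well above background of all arrays, 56.2%, and 3 of the 8 genes were well above background on it, against 8 on each of WT 1, WT 2 and AhRCA 1. Without AhRCA replicate 2 the differences of Cd3d, Cd3g, Nkg7 and Il2rb were -0.85, -0.59, -0.98 and -0.67, with adjusted p between 0.594 and 0.939 (limma).

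**Figure D3:**
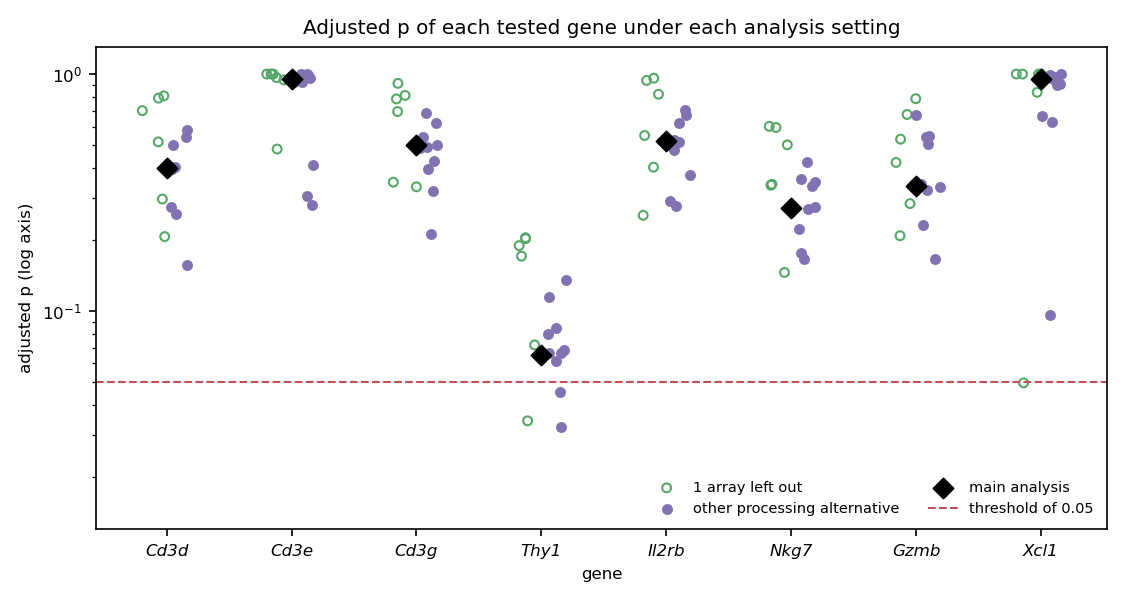
Adjusted p (vertical log axis) of each of the 8 tested genes in the main analysis, with 1 array left out and under the other processing alternatives. Thy1 crosses the threshold of 0.05 under 3 alternatives and Xcl1 under 1; the other 6 genes stay above it throughout.

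By likeness over the 6 arrays, the genes closest to the mean profile of Cd3d, Cd3e and Cd3g were Prss41, Col11a1, Cmpk2, Tmem177 and Mlf1. Their centred values differed from that profile by a root mean square of 0.17 to 0.22 on the log2 scale. That profile averages Cd3e, which varied little, with Cd3d and Cd3g. Among the T cell genes, Nkg7 came nearest at 0.35 (rank 114), followed by Il2rb at 0.42 (rank 399) and Thy1 at 0.46 (rank 743). Gzmb at 0.53 (rank 2472) and Xcl1 at 0.57 (rank 3989) were farther away. With 6 arrays many genes lie this close, and the measure says nothing of shared control.

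Further genes of T cell receptor signalling and the T cell surface were measured less fully: 14 of 28 were tested. Of these 1 was called higher, 0 lower, and 9 had negative differences (49.6% of all genes did), with a median of -0.26. Prkcq, which encodes protein kinase C theta of the T cell synapse, rose from -4.69, -4.24 and -3.95 in WT 1 to 3 to -3.07, -2.47 and -2.73 in AhRCA 1 to 3, opposite in direction to the CD3 chains. Its log2 difference was 1.54 ± 0.24 (adjusted p = 0.0293, limma), against 0.53% of all genes called higher. Leaving out WT replicate 3 kept the call, and leaving out any of the other 5 arrays lost it (adjusted p between 0.0557 and 0.117), as did slide 1 alone (0.0904) and no filter on dim probes (0.0717). Lat, the adaptor phosphorylated by the receptor's kinases, had -0.49 ± 0.13 (adjusted p = 0.154) and Cd6, a T cell surface glycoprotein, -0.51 ± 0.24 (adjusted p = 0.513).

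Among 45 genes of dendritic epidermal T cells and innate-like lymphocytes 25 were tested, of which 1 was called lower and 0 higher (1.65% and 0.53% of all genes were), 11 had negative differences and the median was 0.06. Gzmc, granzyme C, another granule protease, was the gene called lower, from -3.54, -3.51 and -3.61 in WT 1 to 3 to -4.79, -4.97 and -4.61 in AhRCA 1 to 3. All AhRCA values were below all WT values. Gzmc was well above background on 3 of 3 WT and 1 of 3 AhRCA arrays, so its WT arrays alone met the filter. The size of its difference is therefore not well measured, and its call does not by itself support a difference. The fitted log2 difference was -1.24 ± 0.12 (adjusted p = 0.00851, limma). Its call was lost without WT replicate 2 (adjusted p = 0.0504) and with normexp background correction (log2 difference -0.41, adjusted p = 0.0874). Granzymes are a family of similar genes, and whether the probe reads a related one was not tested. Chosen after their values were seen, Itgae, the integrin that binds E-cadherin on keratinocytes, had -0.81 ± 0.30 (adjusted p = 0.331) and Ctsw, a cathepsin of cytotoxic cells, -0.85 ± 0.42 (adjusted p = 0.546). Il2rg, the common gamma chain that pairs with the Il2rb product, was also chosen after its values were seen. It lay in the other direction, at 0.74 ± 0.28 (adjusted p = 0.348, limma). Itgae, like Nkg7 and Gzmc, had all AhRCA arrays below all WT arrays, as did 8.84% of all genes tested.

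Of 18 ligands and growth factors for epidermal T cells 6 were tested and 0 were called; 1 was lower at an unadjusted p under 0.05, against 7.57% of all genes. That gene was Ccl27a, a chemokine of keratinocytes that attracts skin-homing T cells, at 2.10, 2.01 and 1.59 in WT 1 to 3 and 1.26, 0.93 and 0.59 in AhRCA 1 to 3. Every AhRCA array was below every WT array, and the log2 difference was -0.97 ± 0.21 (adjusted p = 0.0875, limma). With the littermate pair as a block it passed (adjusted p = 0.0157; 2.81% of all genes called lower), as it did with the slide as a block (0.0153; 2.91%). Il15, the cytokine on which dendritic epidermal T cells depend, stood at -2.88, -2.47 and -1.69 in WT 1 to 3 and at -3.21, -2.93 and -3.00 in AhRCA 1 to 3. Again the groups were apart, with a log2 difference of -0.69 ± 0.29 (adjusted p = 0.421, limma). All AhRCA arrays were below all WT arrays in 2 of the 6 tested genes of this list and in 8.84% of all genes tested.

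**Figure D4:**
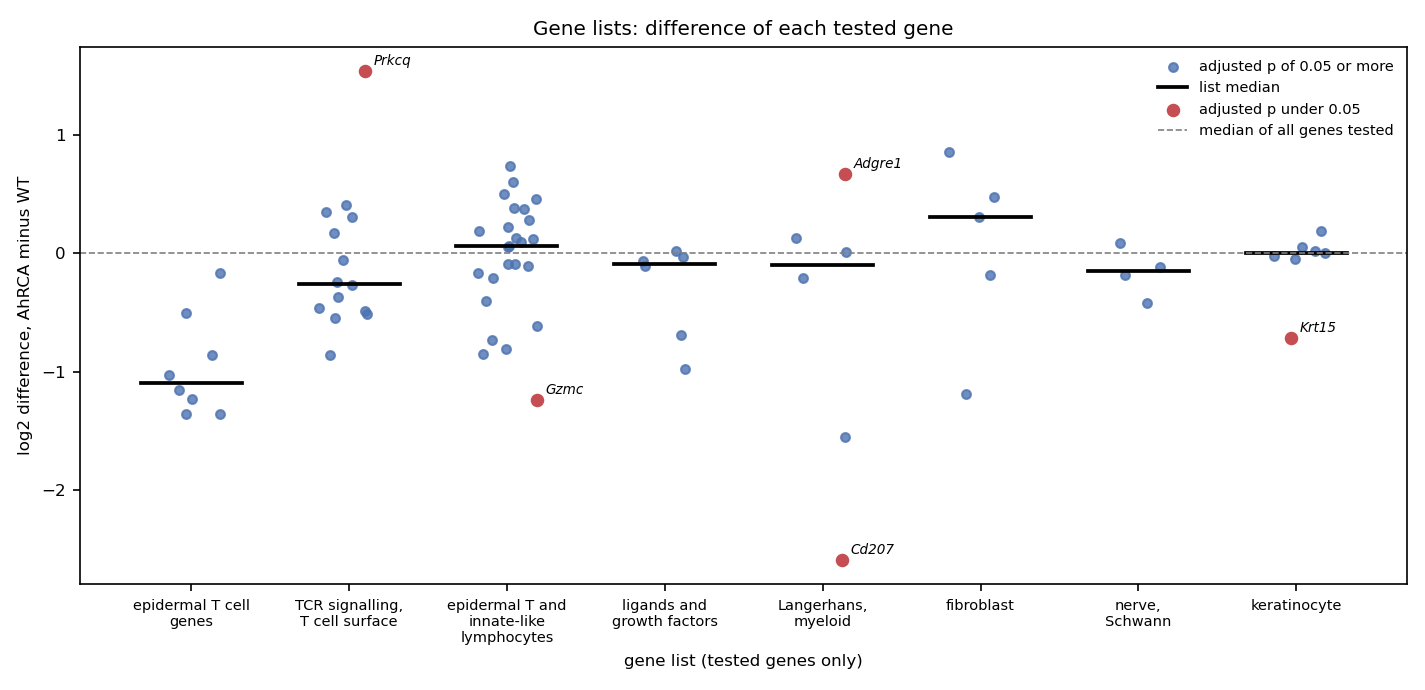
Log2 difference between AhRCA and WT (vertical axis) of each tested gene in the T cell lists and in marker lists of other cells, with black bars for list medians, red points for an adjusted p under 0.05 and a dashed line at the median of all genes tested. The 8 T cell genes lie between -1.36 and -0.17 with no red point; Prkcq, Gzmc, Cd207, Adgre1 and Krt15 are the red points of the other lists.

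Markers of other cells were read beside these values. Of 7 fibroblast markers, cells that can also supply Thy1, 5 were tested and 0 called. Their summed level was 18.2 to 25.5 in WT and 19.2 to 19.5 in AhRCA. Most of that sum came from Dcn, at 4.08 to 4.54 over the 6 arrays, so it says little of the other markers. Pdgfra and Pdgfrb were not well above background on any array. Col1a2, a collagen chain, had -1.19 ± 0.23 (adjusted p = 0.0622, limma). It was called lower with the slide as a block (0.0464) and without WT replicate 3 (0.0497), settings under which Thy1 was called too, and with normexp correction (0.0423), under which Thy1 was not (0.0662). In the other direction Col3a1, another collagen chain, had 0.85 ± 0.68 (adjusted p = 0.854). Of 6 nerve and Schwann markers, another source of Thy1, 4 were tested and 0 called, with summed levels of 7.28 to 8.47 in WT and 7.63 to 7.76 in AhRCA. Most of these sums came from Mbp, at 2.27 to 2.69 over the 6 arrays. Whether cells other than T cells took part in the Thy1 difference was not tested. Of 6 markers of natural killer cells and innate lymphoid cells, 0 were tested: Ncr1, Eomes, Klra4, Klrb1c and Klri2 were not well above background on any array, and the summed level was 0.04 to 0.06 in WT and 0.06 to 0.10 in AhRCA.

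Langerhans cells are the other resident leukocytes of the epidermis. Of 8 Langerhans and myeloid markers 6 were tested, 1 was called higher and 1 lower, and summed levels were 7.73 to 8.95 in WT and 7.52 to 8.18 in AhRCA. Most of these sums came from Epcam, at 2.26 to 2.63 over the 6 arrays, so they say little of the dimmer markers. Cd207, langerin, was lost in the background of all 3 AhRCA arrays, so that it met the filter through WT alone. In the main processing its fitted log2 difference was -2.59 (adjusted p = 0.0206, limma), which rests on AhRCA signals in the background. As a bound, which was not itself tested, Cd207 was lower by at least 3.09-fold. With normexp background correction its log2 difference was -0.75. Because of the filter, the Cd207 call does not by itself support a difference. The call was lost on leaving out any single array of pairs 1 and 2 (0.0534 to 0.0879) and with no filter on dim probes (0.0538). The bound sets WT against the higher of the AhRCA signal and the lowest signal well above background. Adgre1, a macrophage antigen, was called higher, by 0.67 ± 0.10 (adjusted p = 0.0321). That call was lost without any 1 of the 6 arrays (0.0674 to 0.160), with median scaling (0.0730), on slide 1 alone (0.0901) and with no filter on dim probes (0.0781). B cell and mast cell markers had 2 of 5 and 1 of 7 tested and 0 called, with summed levels of 0.18 to 0.22 and 0.14 to 0.20 in WT and of 0.20 to 0.23 and 0.12 to 0.15 in AhRCA. Among lists without a call, differences were Cd79b 0.19 (B cell), Cma1 -0.07 (mast cell), Tubb3 -0.42 and Sox10 -0.18 (nerve and Schwann). Melanocyte, erythroid and skeletal muscle markers had 3, 2 and 2 genes tested and 0 called, with Tyrp1 at 0.33 and Pmel at 0.03, Alas2 at -0.55 and Hba-a1 at -0.27, and Acta1 at -0.08 and Mylpf at -0.03. Of 10 T cell markers outside the 10 genes described here 6 were tested and 0 were called. All 6 had negative differences, with a median of -0.42, and 49.6% of all genes tested did. These 6 were already counted among the 14 tested genes of T cell receptor signalling and the T cell surface. Cd28 and Cd8a were not well above background on any array, and the summed level was 1.51 to 2.49 in WT and 1.10 to 1.96 in AhRCA. Much of that sum came from Cd5, at -0.88 to 0.64 over the 6 arrays, so it says little of the dimmer markers.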

How the data were processed

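The members and gene lists were chosen with earlier results of these data known. RNA of 6 epidermis samples was labelled with Cy3, per the labels' protocols, and each array was read with Agilent Feature Extraction 10.7.3.1, per the file headers, and the deposited processed intensity of each spot was used. The deposited log2 table of the authors was an alternative: its differences between arrays equalled those of the scanner values up to 1 constant per array, its column medians were -0.07, -0.05 and 0.08 in WT 1 to 3 and 0.03, 0.06 and -0.07 in AhRCA 1 to 3, and every probe has a median of 0 across its columns.

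The processed intensity was taken to log2 and set relative to the array's own 75th percentile, without control spots and with 56 to 94 outlier spots per array left out. Of 41174 probes 26690 were named through unversioned RefSeq accessions (GRCm38.p6 table); the brightest kept probe stood for a gene. Genotypes were compared with limma 3.58.1 (R 4.3.3), two-sided, with Benjamini-Hochberg adjustment over 12824 genes. The main fit held no term for littermate pair or slide, and fits with either as a block were alternatives. The fit was tested on simulated data. A summed level adds a list's brightest-probe values on the linear scale, each relative to the 75th percentile, so that the brightest genes of a list weigh most in it. The named genes are the 10 members, up to 4 called genes of each list or its 2 largest differences, and the 5 genes most like the CD3 chains. Lat and Cd6 are the 2 largest differences of the T cell markers. Itgae, Ctsw and Il2rg were named outside this rule, after their values were seen.

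Replicate numbers mark littermate samplings in the series' design text, and same-numbered arrays deviated together from their group means (r = 0.34, 0.37 and 0.55 across 12821 genes; other arrays of opposite genotype -0.42 to 0.19), so they pair the samples. For normexp the median spot signal was used in place of the planned mean signal, and an offset of 50 was added. Some genes of the lists had no probe matched here and were not analysed. Some genes that the naming rule selects are not reported here.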

Additional observations from a re-analysis of the deposited data

How the results depend on the processing

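All 8 tested genes kept a negative difference under every alternative run in which they were tested (16 for Cd3e, Cd3g and Thy1 and 15 for the other 5, which a filter asking for detection on all 6 arrays left untested). Under the 16 alternatives the median difference of those tested lay between -1.63 and -0.49, the latter with normexp background correction, and between -1.47 and -0.73 when 1 array was left out. The count of the T cell genes called, 0 in the main analysis, was 1 with slide blocking and 1 on averaging the probes of each gene (Thy1 in both, in the latter with a probe that met the filter through WT alone) and 0 to 2 when 1 array was left out (2 without WT replicate 3: Thy1 and Xcl1). It was 0 with the littermate pair as a replicate block, which changed no call among the 8. In that fit their adjusted p lay between 0.0666 for Thy1 and 0.666 for Xcl1 (limma). Over all genes the count of 279 became 132 with no filter on dim probes, 497 with the littermate pair as a replicate block, 539 with the slide as a block and 130 on slide 1 alone, and it lay between 62 and 195 when 1 array was left out. In the other lists, the pair block added Ccl27a and lost Krt15 (adjusted p = 0.0534), and the slide block added Ccl27a and Col1a2 (0.0464). The causes were not tested. With normexp correction the differences of Cd3d, Cd3g, Nkg7 and Il2rb were -0.58, -0.53, -0.65 and -0.44. That correction added an offset of 50, beside median processed intensities of 50.5 to 69.3 per array. Such an offset makes the log2 differences of dim probes smaller, so these values are not on the scale of the main analysis. Signal over background limits the comparison: of the 8 genes, 3 were well above background on AhRCA 2.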
